A study of Mus musculus with 2 samples.

Results

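The opioid receptors and the endocannabinoid system were represented by 10 genes, taken by symbol from the 55536 annotated genes of the tables: the opioid receptors Oprm1, Oprd1, Oprk1 and Oprl1, the cannabinoid receptors Cnr1 and Cnr2, and the lipid enzymes Dagla, Daglb, Mgll and Faah. All 10 were found, with 78 annotated transcripts between them, and 9 of the 10 reached 1 TPM (a level of RNA per transcript length and per library total) in both libraries. Tissue was left cerebral cortex from males aged 14 days of B6CASTF1/J, a cross of the C57BL/6 and CAST strains. Both libraries, replicates 1 and 2, belong to 1 group with no treatment or mutation given, each made from 300 ng of total RNA. The labels number them as biological replicates but give 1 donor entry for both and mention 3 males without saying whether tissue was pooled, so the spread between them may be technical. With 1 group there is no comparison between conditions and no p-value.

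Opioid receptors are G-protein-coupled receptors that act through the inhibitory Gi and Go proteins: they lower adenylyl cyclase activity, open inwardly rectifying potassium channels and close presynaptic calcium channels. Endocannabinoids signal backwards across the synapse. Neurons make 2-arachidonoylglycerol from diacylglycerol on demand, it binds the Cnr1 product on axon terminals and reduces transmitter release, and it is then hydrolysed. In the forebrain Cnr1 is known for high levels in cholecystokinin interneurons and lower levels in pyramidal cells, and Oprm1 for its patches in the striatum.

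The 5 genes at the top were 4 of the endocannabinoid system and the nociceptin receptor, and the 3 classical opioid receptors lay far below them. Mean levels were 68.3 ± 1.97 TPM for Mgll, 56.7 ± 4.60 TPM for Cnr1, 40.0 ± 1.81 TPM for Faah, 37.3 ± 1.43 TPM for Dagla and 31.1 ± 2.45 TPM for Oprl1 (SD, n = 2 throughout). Daglb followed at 11.1 ± 0.240 TPM. Oprk1 at 6.08 ± 3.27 TPM, Oprd1 at 5.38 ± 0.0566 TPM and Oprm1 at 4.725 ± 1.82 TPM came next, and Cnr2 was at 0.025 ± 0.0212 TPM. Of the 9 steps in this order, 7 were shared by both libraries with a mean log2 ratio above its SD. The steps from Oprk1 to Oprd1 and from Oprd1 to Oprm1 were not: replicate 1 gave the order Oprk1, Oprm1, Oprd1 and replicate 2 the order Oprd1, Oprk1, Oprm1. The step from Faah to Dagla was small, at 0.10 ± 0.010 on the log2 scale of TPM + 0.1, but had the same direction in both libraries. Among 22015 nuclear protein-coding genes ranked by mean TPM, Mgll was at rank 1539, Cnr1 at 1933 and Oprl1 at 3779, while Oprm1 was at rank 10462.

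**Figure D1:**
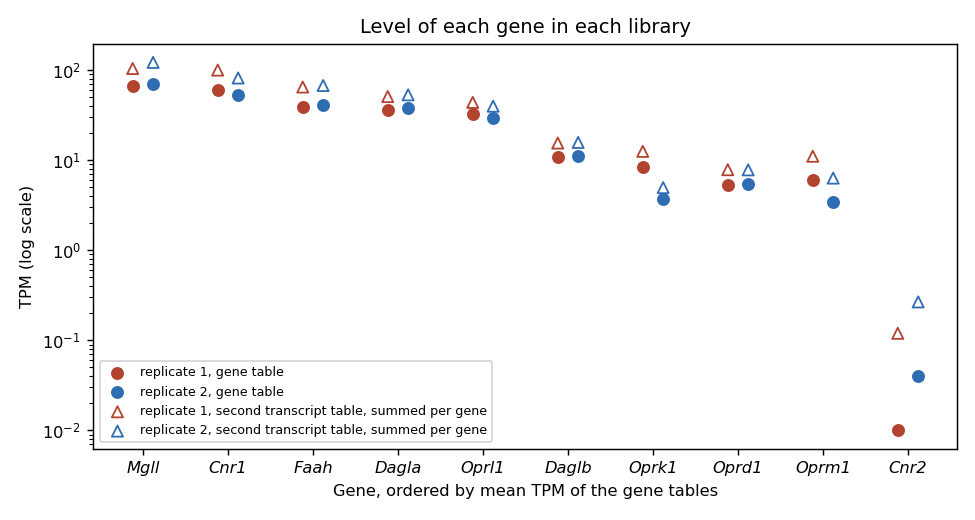
TPM (log axis) of each gene in replicate 1 (red, left) and replicate 2 (blue, right), from the gene tables (filled circles) and from the second transcript tables summed per gene (open triangles). Most pairs of points nearly coincide on this axis, whereas Oprk1 and Oprm1 were higher in replicate 1, and Cnr2 lay near the bottom of the axis in both libraries.

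Among the opioid receptors, Oprl1 (ENSMUSG00000027584.16, chromosome 2, 181715016 to 181720985, plus strand, mm10) encodes the receptor for nociceptin, a peptide that the other opioid receptors bind poorly. It had 32.84 and 29.37 TPM in replicates 1 and 2, from 1428 and 1381 expected counts. It was above each classical receptor in both libraries, with a log2 ratio to Oprm1 of 2.43 in replicate 1 and 3.06 in replicate 2. The 3 classical receptors together had 19.7 and 12.6 TPM, less than Oprl1 alone in either library.

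Oprm1 (ENSMUSG00000000766.18, chromosome 10, 6758506 to 7038198, plus strand) encodes the mu receptor, the main target of morphine. It had 6.01 TPM in replicate 1 and 3.44 TPM in replicate 2, from 242 and 149 expected counts. Oprd1 (ENSMUSG00000050511.1, chromosome 4, 132110726 to 132144486, minus strand), the delta receptor for enkephalins, had 5.34 and 5.42 TPM from 398 and 431 counts, nearly the same level in both. Oprk1 (ENSMUSG00000025905.13, chromosome 1, 5588466 to 5606131, plus strand), the kappa receptor for dynorphins, had 8.39 and 3.77 TPM from 591 and 283 counts. Oprm1 and Oprk1 thus had the higher level in replicate 1, and which of the classical receptors led depended on the library. The log2 ratio of Oprm1 to Oprk1 was -0.47 in replicate 1 and -0.13 in replicate 2 in the gene tables. In the second transcript tables it was -0.18 and 0.34, so the order of these receptors is not settled here. The log2 ratio of Oprm1 to Oprd1 was 0.17 in replicate 1 and -0.64 in replicate 2.

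Most Oprm1 RNA was assigned to the transcript with the classical C-terminal coding end. Oprm1 is known for alternative splicing of its last coding exons, which changes the receptor's intracellular tail, and 31 transcripts are annotated. Of the 17 protein-coding ones, 13 carry the same start codon and the third of the shared coding exons and then splice to a further exon, with 11 distinct coding ends among them. Below are the end of the classical form and the 3 others with a share above 0 in both libraries of the first transcript table. These ends are shown because they differ between the forms. They were read from the GENCODE M21 transcripts on the plus strand of chromosome 10; lower case gives the last 12 bases of the shared exon, and capitals the coding bases that follow, stop codon included.
Oprm1-215: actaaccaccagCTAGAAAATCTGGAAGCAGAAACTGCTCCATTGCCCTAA
Oprm1-230: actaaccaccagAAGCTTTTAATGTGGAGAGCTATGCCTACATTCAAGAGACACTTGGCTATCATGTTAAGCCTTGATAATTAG
Oprm1-213: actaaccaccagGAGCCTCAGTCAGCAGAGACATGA
Oprm1-212: actaaccaccagTGGCAAGGCTAG
The classical end adds 12 codons before its stop and begins at 6849806 (mm10). The ends of Oprm1-230, Oprm1-213 and Oprm1-212 add 23, 7 and 3 codons from exons that begin at 6840566, 6839535 and 6831937. The annotated starts differ as well. Oprm1-215 begins with an upstream exon from 6758593 to 6758690, Oprm1-230 begins at 6788809, and Oprm1-213 and Oprm1-212 begin at 6788837. The shares of these transcripts therefore do not reflect the coding ends alone.

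Oprm1-215 held 76.4% and 83.0% of the gene's abundance in replicates 1 and 2 (198.05 and 131.57 expected counts). In the second tables its share was 66.2% and 67.5%. The leading form was therefore the same in both libraries and both tables, at 79.7 ± 4.67% in the first and 66.8 ± 0.922% in the second. Oprm1-203 and Oprm1-208 encode the same end and were listed at 0 in all 4 tables. Oprm1-215 is the longest of these at 2369 bases, against 1440 and 1569. Oprm1-230 had 4.72% and 1.65%, Oprm1-213 had 2.59% and 2.95%, and Oprm1-212 had 2.65% and 1.53%. None of these 3 rested on more than 11.7 estimated counts in any library or table, so single alternative ends are at the limit of this depth. Of the 31 transcripts, 22 were listed at 0 in both libraries of the first tables.

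Oprd1 has 1 annotated transcript, so it has no split of abundance to report. For Oprk1, the coding transcript Oprk1-204 led with 58.4% and 63.3% in replicates 1 and 2, and 54.6% and 70.3% in the second tables. Oprk1-205, a single exon of 2846 bases annotated as a retained intron, took 18.7% and 16.7%, and 21.1% and 21.7% in the second tables. Retained-intron transcripts together held 23.7 ± 3.54% of Oprk1 abundance in the first tables and 28.6 ± 0.704% in the second. Its higher level in replicate 1 was present on both kinds: Oprk1-204 had 425.85 and 221.62 expected counts, and Oprk1-205 had 81.92 and 35.1. Oprk1-201 encodes the same 380 codons as Oprk1-204 with a shorter last exon, and it had 7.85% and 15.4% in the first tables but 0 in the second.

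For Oprl1, Oprl1-201 led with 36.1% and 46.4%, and with 53.5% and 54.5% in the second tables. Oprl1-209, annotated as a target of nonsense-mediated decay, with an added exon that holds an early stop, had 14.75% and 10.6%, and 15.0% and 12.5% in the second tables. Protein-coding forms together made up 71.2 ± 3.55% of Oprl1 in the first tables and 74.9 ± 1.32% in the second. Oprl1-202, coding for 353 codons against 367 in Oprl1-201, stood at 8.72% and 10.15%, and at 12.9% and 11.7% in the second tables. The short non-coding Oprl1-208 had 4.80% and 9.97%, and 10.2% and 10.99% in the second tables.

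Of the cannabinoid receptors, only Cnr1 was detected above the counting floor in both libraries of the gene tables. Cnr1 (ENSMUSG00000044288.6, chromosome 4, 33924593 to 33948831, plus strand) had 59.96 and 53.45 TPM in replicates 1 and 2, from 5936 and 5897 expected counts. Cnr2 (ENSMUSG00000062585.11, chromosome 4, 135895394 to 135920207, plus strand), the receptor known from immune cells, had 0.01 and 0.04 TPM, from 1 and 3 counts. A count of 0 allows up to 3 counts, which for Cnr2 corresponds to 0.0432 and 0.0393 TPM, so its counts are at or below that floor. Per length, the ratio of Cnr1 to Cnr2 was 4164 in replicate 1, with an exact 95% binomial interval of 747 to 164501, and 1361 in replicate 2, with an interval of 465 to 6600, for counting error only. In the second tables the ratio of TPM was 840 in replicate 1 and 307 in replicate 2, so the size of this ratio depends on a few Cnr2 counts and on the table. The second tables gave Cnr2 6.08 and 14.7 estimated counts, and the shares of Cnr2-201 and Cnr2-202 rest on too few counts to read. Microglial markers were present beside it: all 6 of the list reached 1 TPM in both libraries, with a sum of 165 and 160 TPM, and none of 6 blood leukocyte markers did (0.45 and 0.41 TPM in sum).

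Cnr1 abundance was led by 1 of its pair of first exons. Cnr1-201 and Cnr1-202 share the exon that holds all 473 codons and differ in the first exon, which ends at 33925158 in Cnr1-201 and at 33926694 in Cnr1-202. Cnr1-201 held 81.5% and 84.8%, against 8.82% and 9.94% for Cnr1-202. In the second tables the shares were 50.4% and 65.6% for Cnr1-201, against 25.9% and 20.7% for Cnr1-202. The direction was the same in both libraries and both tables, while the size of the gap depended on the table. Cnr1-203, a spliced non-coding transcript without the coding exon, took 9.72% and 5.24%, and 23.7% and 13.8% in the second tables. Cnr1-203 also begins with a first exon that ends at 33925158, as in Cnr1-201, and its share is not part of the comparison above. It is 757 bases long and had 72.82 and 37.37 expected counts, so its share of abundance is high for few reads.

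The RefSeq promoter table (GRCm38.p6) matched 8 of the 10 genes with 16 windows of 300 bases, 250 before a start and 50 after it. The windows of the Cnr1 first exons are printed because the shares above separate them, with each CpG in capitals. The first window, chr4:33924394-33924693 on the plus strand, has its start in the first exon of Cnr1-201, and the second, chr4:33926130-33926429, in that of Cnr1-202.
Cnr1 window at the Cnr1-201 exon: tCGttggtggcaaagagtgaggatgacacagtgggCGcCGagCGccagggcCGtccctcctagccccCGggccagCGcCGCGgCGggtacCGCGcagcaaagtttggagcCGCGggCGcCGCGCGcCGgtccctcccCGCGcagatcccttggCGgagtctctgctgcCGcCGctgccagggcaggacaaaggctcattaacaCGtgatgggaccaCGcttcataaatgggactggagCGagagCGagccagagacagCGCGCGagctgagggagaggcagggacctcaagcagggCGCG
Cnr1 window at the Cnr1-202 exon: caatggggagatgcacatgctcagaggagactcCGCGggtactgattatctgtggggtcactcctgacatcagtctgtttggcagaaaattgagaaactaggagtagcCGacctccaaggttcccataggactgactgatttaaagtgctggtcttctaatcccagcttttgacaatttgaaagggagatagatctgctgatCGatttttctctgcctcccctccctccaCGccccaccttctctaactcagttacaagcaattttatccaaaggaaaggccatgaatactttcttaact
The Cnr1-201 window held 33 CpG and 69.0% G or C, against 5 CpG and 46.3% in the Cnr1-202 window. The median over 32851 promoters was 7 CpG, 8.56% of promoters had 33 or more, and 43.6% had 5 or fewer. Neither window held TATAAA (present in 13.6% of all promoters) or the GC box GGGCGG (35.7%), each searched on both strands. A further Cnr1 window in the table, not printed here (chr4:33924014-33924313), has its start upstream of every annotated first exon of Cnr1 and held 40 CpG, 76.3% G or C and 5 GC boxes.

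The enzymes that make 2-arachidonoylglycerol differed in level by a steady ratio. Dagla (ENSMUSG00000035735.10, chromosome 19, 10245265 to 10304877, minus strand), the diacylglycerol lipase known to supply synaptic 2-arachidonoylglycerol in the brain, had 36.33 and 38.35 TPM in replicates 1 and 2, from 3770 and 4210 counts. Daglb (ENSMUSG00000039206.13, chromosome 5, 143464584 to 143505942, plus strand), its paralogue, had 10.94 and 11.28 TPM from 890 and 985 counts. The log2 ratio of Dagla to Daglb was 1.72 and 1.76, with a mean of 1.74 ± 0.024. Exons of Rac1 on the opposite strand cover 24.1% of the annotated exonic bases of Daglb, and since the use of strand in counting is not given, reads of Rac1 there cannot be told apart from those of Daglb. Dagla abundance was nearly all on Dagla-201, with 98.55% and 96.0%. Daglb-201 held 81.1% and 83.8% of Daglb, and 3 retained-intron transcripts together held 18.9% and 16.2%. Daglb-204, a single exon among these, had 8.69% and 6.61%, and 12.9% and 8.56% in the second tables.

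Among the enzymes of breakdown, Mgll, encoding monoacylglycerol lipase, which hydrolyses 2-arachidonoylglycerol, was above Faah, the amidase that hydrolyses anandamide. Mgll (ENSMUSG00000033174.17, chromosome 6, 88724412 to 88828360, plus strand) had 66.89 and 69.68 TPM from 4230 and 4941 counts. Faah (ENSMUSG00000034171.13, chromosome 4, 115967145 to 116017926, minus strand) had 38.74 and 41.3 TPM from 2149 and 2570 counts. The log2 ratio of Mgll to Faah was 0.79 in replicate 1 and 0.75 in replicate 2. The synthetic enzyme Dagla was below Mgll by a log2 ratio of -0.88 and -0.86. In the gene tables both ratios were nearly the same in the 2 libraries. Mgll, Faah and Dagla each had a slightly higher TPM in replicate 2. In the second tables the log2 ratio of Mgll to Faah was 0.68 in replicate 1 and 0.85 in replicate 2. That of Dagla to Mgll was -1.04 and -1.20 there, so the direction was kept while the size of this gap depended on the table.

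The alternative enzymes of each branch were lower. Abhd6, a further serine hydrolase that cleaves 2-arachidonoylglycerol, had 25.25 and 31.85 TPM, and the log2 ratio of Mgll to Abhd6 was 1.40 and 1.13. Naaa, a lysosomal amidase of fatty acid ethanolamides, had 13.08 and 12.1 TPM, and the log2 ratio of Faah to Naaa was 1.56 and 1.76. Abhd12, another hydrolase, was the exception at 113.74 and 112.13 TPM, above Mgll in both libraries.

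The leading Mgll transcript depended on the transcript table. In the first tables Mgll-204 led with 46.6% and 40.65%, ahead of Mgll-201 with 21.15% and 36.85% and of Mgll-207 with 20.2% and 15.3%. In the second tables Mgll-201 led with 52.7% and 43.4%, ahead of Mgll-207 with 27.3% and 20.5%, and Mgll-204 had 3.42% and 14.6%. Mgll-204 and Mgll-201 encode the same 303 codons and differ in their first exon, which ends at 88724571 in Mgll-204 and at 88725178 in Mgll-201 and Mgll-207. Grouped by first exon, coding transcripts with the downstream exon had 50.1 ± 8.13% in the first tables and 76.7 ± 11.3% in the second. Coding transcripts with the upstream exon had 43.6 ± 4.24% and 10.4 ± 8.19%. By library, the first tables gave the downstream group 44.3% and 55.8% in replicates 1 and 2, and the upstream group 46.6% and 40.65%. Which group led in the first tables thus depended on the library, while in the second tables the downstream group led in both. Mgll-208, annotated as a target of nonsense-mediated decay and not counted among these coding transcripts, also begins with the upstream exon and had 3.44% and 0% in the first tables, and 8.69% and 12.7% in the second. The start codon of Mgll-207, at 88725151, also lies in the first exon of Mgll-201, so its 319 codons differ from the 303 of Mgll-201 by annotation of the start, not by an exon.

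The promoter windows of both Mgll starts are printed because they belong to the first exons on which the tables differ, again with each CpG in capitals. The upstream window, chr6:88724162-88724461, has its start at the first base of Mgll-204, and the downstream window, chr6:88724454-88724753, at that of Mgll-207, both on the plus strand.
Mgll window at the Mgll-204 start: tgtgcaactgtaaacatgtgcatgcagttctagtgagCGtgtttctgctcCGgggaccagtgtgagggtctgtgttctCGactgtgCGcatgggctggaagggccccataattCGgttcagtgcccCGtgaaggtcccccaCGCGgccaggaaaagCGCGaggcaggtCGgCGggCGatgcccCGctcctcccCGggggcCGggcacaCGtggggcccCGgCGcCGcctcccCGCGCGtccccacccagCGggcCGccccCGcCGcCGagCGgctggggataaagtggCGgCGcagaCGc
Mgll window at the Mgll-207 start: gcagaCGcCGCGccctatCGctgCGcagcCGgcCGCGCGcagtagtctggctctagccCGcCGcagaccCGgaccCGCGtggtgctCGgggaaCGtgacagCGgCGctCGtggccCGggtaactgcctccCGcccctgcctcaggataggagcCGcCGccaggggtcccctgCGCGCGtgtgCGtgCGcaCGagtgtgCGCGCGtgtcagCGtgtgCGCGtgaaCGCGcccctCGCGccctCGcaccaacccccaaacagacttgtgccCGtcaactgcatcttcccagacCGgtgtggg
The windows held 32 and 42 CpG, with 70.0% and 72.3% G or C. Each held 1 GC box (GGGCGG on either strand) and no TATAAA.

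Faah abundance was spread over coding and intron-retaining forms. Faah-201, the 1 protein-coding transcript of 8, held 53.9% and 56.1%, and 48.5% and 48.9% in the second tables. The 5 retained-intron transcripts together held 36.9 ± 2.75% in the first tables and 39.9 ± 3.27% in the second. Faah-203 led these with 19.1% and 14.1%, and Faah-206 followed with 10.5% and 10.96%. The non-coding Faah-204 had 7.28% and 8.96%. By number of reads Faah-201 dominated, with 1478 and 1751 expected counts, against 97.3 and 81.61 for Faah-203, which is 790 bases long.

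**Figure D2:**
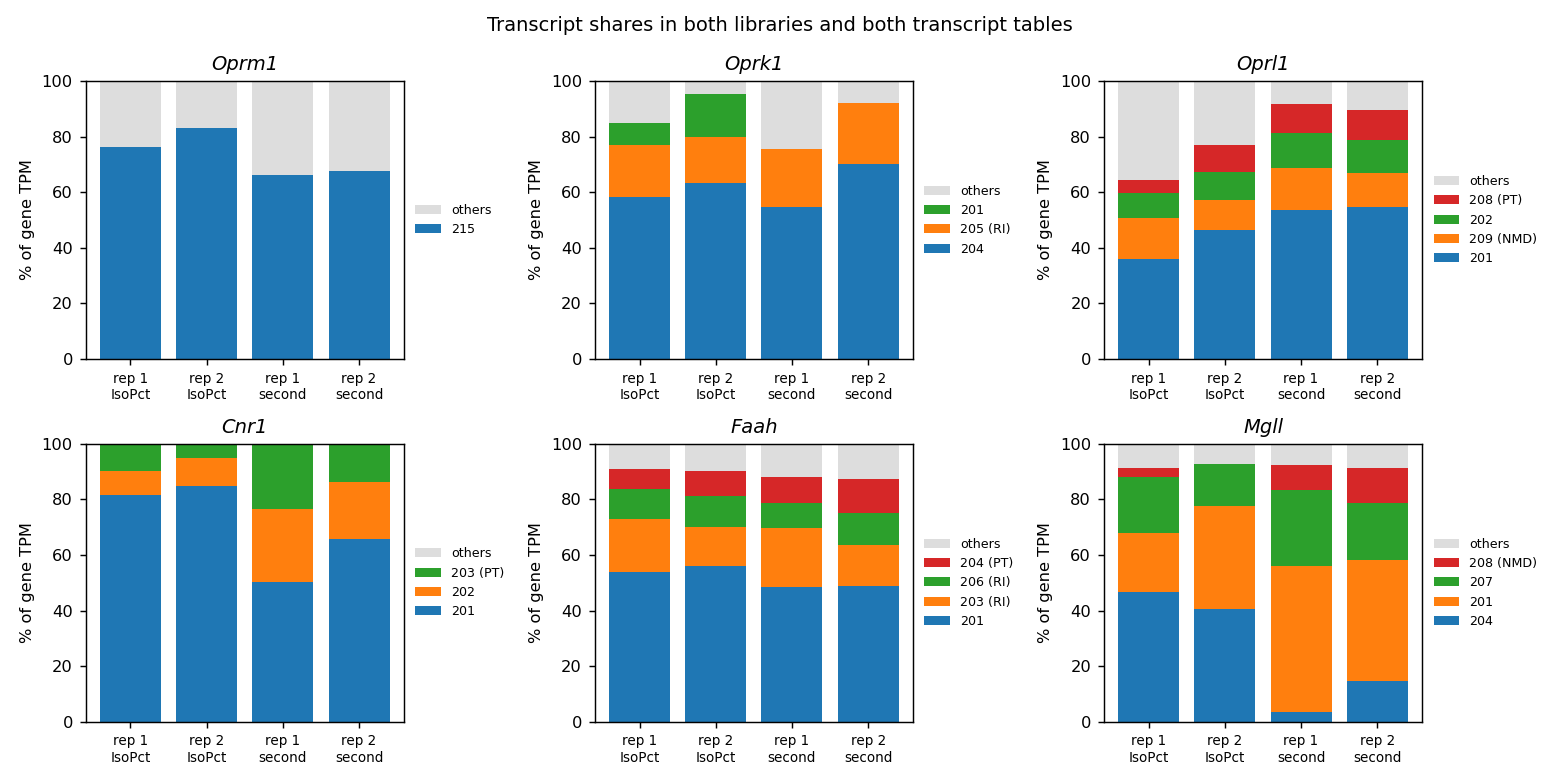
Share of each gene's abundance (percent of TPM) by transcript in replicates 1 and 2 of the first transcript tables (IsoPct) and of the second tables, for 6 genes; transcripts with a mean share of at least 10% in either table are coloured, and RI, NMD and PT mark retained-intron, nonsense-mediated-decay and processed-transcript annotations. The leading transcript was the same in all 4 columns for 5 of these genes, and for Mgll it changed between the tables.

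Between the libraries, Oprk1 and Oprm1 stood apart from the other detected members. On the log2 scale of CPM (counts scaled to a common library size), replicate 1 minus replicate 2, Oprk1 differed by 1.16, with an interval of 0.95 to 1.37, and Oprm1 by 0.79, with an interval of 0.50 to 1.10. Intervals here are exact 95% binomial ones that cover counting error only. Oprk1 was thus 2.23-fold and Oprm1 1.73-fold higher in replicate 1. The other 7 genes that passed the filter of 10 counts in a library lay between -0.16 (Faah) and 0.15 (Oprl1), with Oprd1 at -0.016. Cnr2 did not pass the filter. Past 2-fold was 1 of 9 members, Oprk1, against 3.94% of the 18965 genes in either direction, 2.50% of them higher in replicate 1, and 0.816% of the 12625 genes whose mean count was 100 or more. Past 1.5-fold were 2 of 9, against 11.0% of all genes. The median difference over the 9 was -0.016, beside 0.00034 over all genes.

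Several marker lists of regions, layers and cell types also differed between the libraries, some higher and some lower in replicate 1. Over all genes that passed the filter, 2.50% were more than 2-fold higher in replicate 1, and the median difference was 0.00034. Of 11 markers of striatal projection neurons, all reached 1 TPM in both libraries and none was at 0. In replicate 1, 10 were higher, 8 of them by more than 2-fold. They summed to 682 TPM in replicate 1 and 249 TPM in replicate 2. The dopamine receptor gene Drd2 had 13.59 and 1.87 TPM. Of 9 deep cortical layer markers found (Ctgf had no match by symbol), 7 were higher in replicate 1 and none was at 0, with sums of 253 and 173 TPM. The 2 past 2-fold were Bcl11b, with 44.15 and 19.36 TPM, and Foxp2, with 8.75 and 3.3 TPM. The 2 lower in replicate 1 were Etv1, with 30.1 and 33.05 TPM, and Fezf2, with 11.65 and 13.09 TPM. All 8 upper cortical layer markers were lower in replicate 1, with sums of 645 and 916 TPM. All 6 oligodendrocyte markers were higher in replicate 1, with sums of 1070 and 701 TPM, as were all 4 markers of oligodendrocyte precursors, with sums of 140.5 and 121 TPM. Of 8 SST and PV interneuron markers, 7 were higher in replicate 1, with sums of 544 and 440 TPM. The 1 lower in replicate 1 was Pvalb, the PV gene itself, with 13.85 and 21.16 TPM. Of 7 CCK and VIP interneuron markers, 2 were higher in replicate 1, with sums of 393 and 436 TPM. The 2 higher were Calb2, with 27.32 and 14.51 TPM, and Cxcl14, with 64.05 and 56.72 TPM. Cck alone had 230.38 and 285.12 TPM of these sums. No marker of these lists was at 0. The part of these markers in the Oprk1 and Oprm1 differences was not tested. In bulk tissue, fewer cells of a type and less RNA per cell cannot be told apart. The 6 pan-neuronal markers, which check for neuronal tissue but not for its region, were present at 3321 and 3435 TPM in sum. Other lists differed little: median log2 differences were -0.098 for pan-neuronal, 0.0089 for astrocyte, -0.047 for microglial and -0.081 for endothelial markers.

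**Figure D3:**
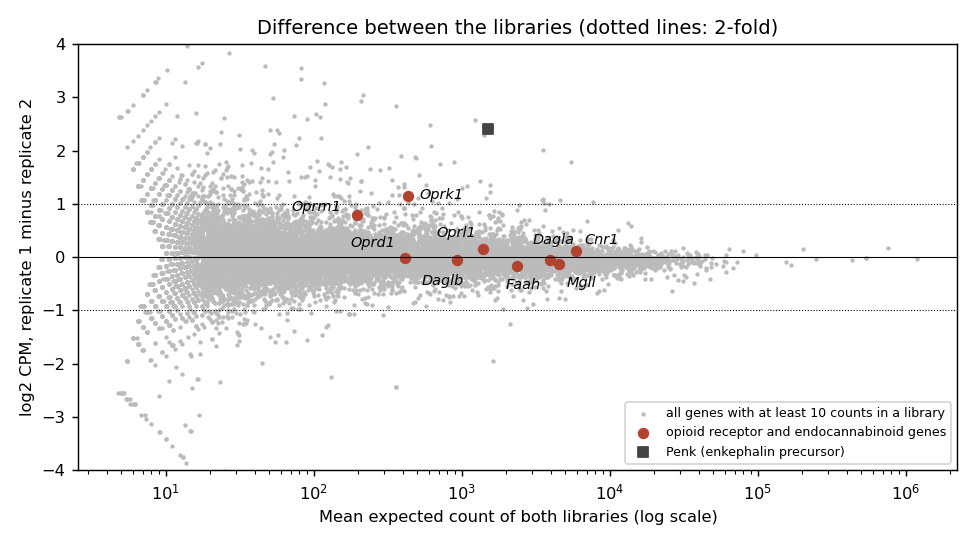
Difference between the libraries (log2 CPM, replicate 1 minus replicate 2) against the mean expected count (log axis) for 18965 genes in grey, with 24 of them outside the vertical range; red points are the 9 receptor and enzyme genes that passed the filter, the square is Penk, and dotted lines mark 2-fold. Oprk1 lies above the upper line at 1.16 and Oprm1 below it at 0.79, while the other 7 lie within 0.16 of 0.

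Of the 4 genes of opioid peptide precursors, 1 differed more between the libraries than any of the 9 receptor and enzyme genes that passed the filter on counts. Penk, the enkephalin precursor, had 108.49 TPM in replicate 1 and 20.34 TPM in replicate 2, a log2 difference of 2.40 (counting interval 2.26 to 2.54). Penk is also 1 of the 11 striatal markers above. Pdyn, the dynorphin precursor and likewise on that list, had 15.1 and 13.95 TPM, a difference of 0.099. Pnoc, the nociceptin precursor, had 5.66 and 6.18 TPM, and Pomc, the precursor of beta-endorphin, had 1.2 and 1.67 TPM from 20 and 31 counts. Penk alone of the 4 was past 2-fold, against 3.94% of all genes.

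Set against their ligand precursors, the receptors differed in order. Oprl1 was above Pnoc by a log2 ratio of 2.52 in replicate 1 and 2.23 in replicate 2. Oprk1 was below Pdyn, with -0.84 and -1.86, and Oprd1 was below Penk, with -4.32 and -1.89. The spread of the Oprd1 and Penk ratio came from Penk, since Oprd1 was level between the libraries. Of the 13 pairs compared, 12 had the same direction in both libraries with a mean above the SD, Oprm1 and Oprd1 being the exception.

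Of 12 further enzymes and carriers of endocannabinoids, all reached 1 TPM in both libraries, with 4 higher and 8 lower in replicate 1. None was past 2-fold, against 3.94% of all genes. The 4 highest were Gde1, a phosphodiesterase of the anandamide route, with 142.35 and 151.45 TPM, Fabp5, a fatty acid binding protein that carries anandamide, with 107.55 and 121.34 TPM, Abhd12, given above, and Plcb1, a phospholipase C that yields diacylglycerol, with 76.08 and 86.58 TPM. Their median difference was -0.11. None of the 4 other receptors linked to cannabinoids reached 1 TPM. Trpv1 had 0.13 and 0.06 TPM from 6 and 4 counts, and Gpr55 had 0.04 and 0.05 TPM from 3 and 4 counts, few but not all within the floor of 3 counts. Gpr18 had 1 count in replicate 1 and 0 in replicate 2, and Gpr119 had 0 in both, which is within that floor. Genes of proteins that interact with the cannabinoid receptor were abundant by comparison. Cnrip1, which binds the tail of the Cnr1 product, had 67.48 and 71.21 TPM, Sgip1, which slows its internalisation, had 139.89 and 146.33 TPM, and Gprasp1, a sorting protein of internalised receptors, had 157.82 and 148.87 TPM.

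The shared machinery of these receptors was present throughout. All 15 genes of Gi and Go signalling and desensitisation reached 1 TPM in both libraries, led by Gnao1, the alpha subunit of Go, with 442.87 and 445.09 TPM. Rgs4, a protein that speeds Gi and Go shut-off, had 180.81 and 236.28 TPM, Gnai2 had 102.46 and 93.5 TPM and Gnai1 had 86.27 and 90.29 TPM. Past 2-fold were 2 of the 15, both higher in replicate 1, against 3.94% of all genes in either direction and 2.50% higher in replicate 1. Adcy5, an adenylyl cyclase abundant in the striatum, had 81.88 and 39.81 TPM, a difference of 1.03, and Rgs9, which is also on the striatal marker list, had 48.03 and 8.01 TPM, a difference of 2.58. The other 13 lay between -0.50 and 0.15, and the median over the 15 was -0.062.

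**Figure D4:**
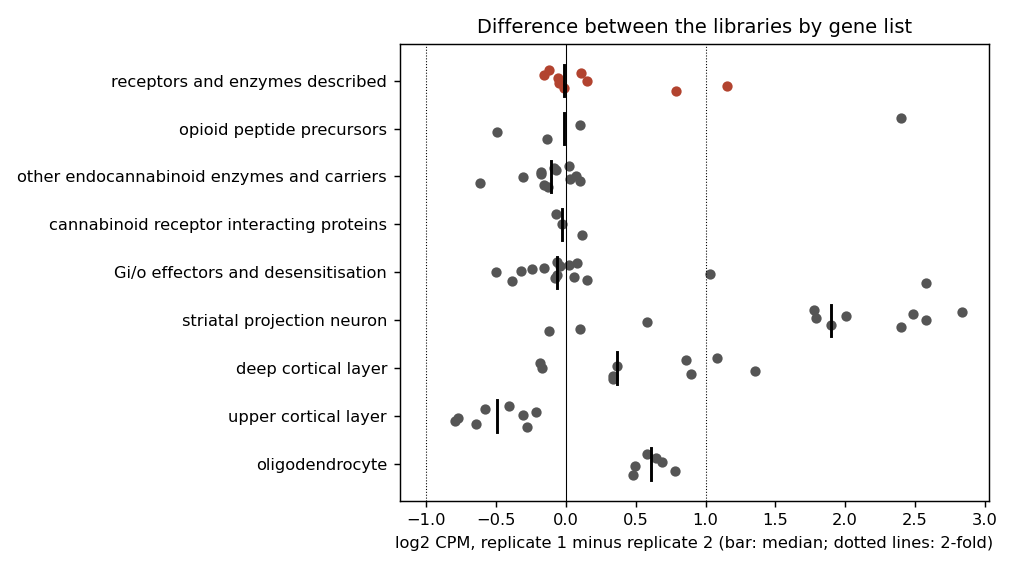
Difference between the libraries (log2 CPM, replicate 1 minus replicate 2) for each gene of the pathway lists and of 4 marker lists. The marker lists drawn are striatal projection neuron, deep layer, upper layer and oligodendrocyte, and the other marker lists are not drawn. Each point is a gene, bars are medians and dotted lines mark 2-fold. The receptor and enzyme genes centre at -0.016 with Oprm1 and Oprk1 to the right, the striatal list has a median of 1.90, and the upper layer list lies wholly below 0.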

How the data were processed

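Total RNA of left cerebral cortex was measured in 2 libraries of 1 group. Per the deposited description files, a gene table and a first transcript table were made by aligning reads to the transcriptome (mm10, GENCODE M21), and a second transcript table came directly from the reads. Their column names are those that RSEM and kallisto write; for the aligner, quantifiers, versions and use of strand, the sources used here give nothing. The deposited expected and estimated counts are not normalized. Deposited TPM sums over every entry of its file, and the deposited percent (IsoPct) is a transcript's share of its gene. The deposited interval bounds of TPM were read as a score.

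Genes were matched by versioned identifier, and 26345 entries (spike-ins, phiX and entries named only by a number) were left out. Depth was 28377847 and 30982776 expected counts in replicates 1 and 2. For the 17769 genes that had 10 or more counts in each, chi-square per degree of freedom was 12.0, so the files do not repeat 1 library. Library differences used rounded expected counts, TMM factors and log2 CPM with a prior count of 2 (edgeR 4.0.16, R 4.3.3; DESeq2 1.42.0 for alternative size factors) for genes with at least 10 counts in a library, and were tested on simulated counts. Ratios within pairs used TPM + 0.1, and a direction needed the same sign in both and a mean above the SD. Named were all 10 genes, lists of up to 5 genes in full, and of longer lists the 4 highest and any past 2-fold, and transcripts with a mean share of at least 10% in either table. Drd2, Pvalb, Calb2, Cxcl14, Cck, Oprm1 coding ends, overlapping exons, promoter windows and first-exon groups were chosen after the values were seen. Alternatives were other tables, scalings, pseudocounts and filters, and leaving out a replicate. The genes and lists were chosen with earlier results of these data known. Other steps used Python 3.11.15 with pandas 2.3.3, scipy 1.17.1 and matplotlib 3.10.9.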

Additional observations from a re-analysis of the deposited data

How the results depend on the processing

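The 9 of 10 genes at 1 TPM in both libraries were also 9 at 0.5 TPM, at 2 TPM and in the second tables. The 12 of 13 pairs with a direction were 11 in the second tables and 11 with expected counts not divided by length, and the log2 ratio of Oprm1 to Oprk1 reversed to 0.083 in the second tables; the cause was not tested. Members past 2-fold numbered 1 with TMM or DESeq2 factors, 2 at 1.5-fold and 2 in the second tables, where Cnr2 passed the filter on 6.08 and 14.7 estimated counts. All genes past 2-fold numbered 748 with TMM and with DESeq2 factors, 803 in the second tables, 2079 at 1.5-fold, 2297 with no filter on low counts and 103 at a mean of at least 100 counts. TPM levels moved with the table: in the second tables the 9 detected genes had 1.35 to 1.85 times their TPM in the gene tables, where the median over protein-coding genes was 1.56 and 1.54. Nuclear protein-coding genes held 46.4% and 46.9% of TPM, so TPM rescaled over those genes is higher. Transcript shares moved beyond the SD for 16 of 25 transcripts between tables. Depth limits Cnr2 and the minor Oprm1 ends, and 2 libraries allow no test.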

Other observations

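The deposited TPM intervals held the deposited TPM of 9 of the 10 genes in each library, and Oprm1 was the exception in both. Its TPM of 6.01 in replicate 1 lay below the interval of 7.45 to 11.4, and its 3.44 in replicate 2 below 4.66 to 8.03. The second tables gave Oprm1 11.1 and 6.36 TPM, which lie inside those intervals by number only, because the TPM scales differ. Over protein-coding genes, the median ratio of second-table to gene-table TPM was 1.56 in replicate 1 and 1.54 in replicate 2. Oprm1 had the most annotated transcripts of the 10 genes, 31, and the next was Oprl1 with 11.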
